A study of Mus musculus with 24 samples.

Results

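The cytosolic ribosomal protein genes are described here as 1 set in the mouse hippocampus. A gene was a member when its name was Rpl or Rps followed by a number, with a closing letter or digit allowed, or was Rpsa, Rplp0, Rplp1, Rplp2 or Fau, and when it had 100 or more counts in each of the 24 libraries. Of 47593 genes in the table, 90 carried such a name and 82 passed the count limit. Of the 82 members, 48 belong to the large subunit and 34 to the small subunit by name. The libraries came from hippocampi of male C57BL/6J mice, WT or Tob-KO, taken without training (naive) or at 15 min, 1 h or 3 h from contextual fear conditioning, in which a tone was paired with a foot shock in a training chamber. Each of the 8 groups had 3 libraries. The behavioural methods give an age of 8 to 12 weeks. The Tob-KO mice came from an established line, and no agent is named for any group.

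The cytosolic ribosome reads mRNA and is assembled in the nucleolus from ribosomal RNA and a single copy of most ribosomal proteins. Because the proteins are needed in equal numbers, their genes are known for being expressed together. Their mRNAs carry a 5′ terminal oligopyrimidine tract, a short run of C and T at the cap, through which the mTOR pathway controls their translation. In neurons, ribosomes near synapses are known to support the protein synthesis that lasting memory needs. An mRNA level does not measure that translation.

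The pyrimidine tract was looked for in the RefSeq promoter sequences of GRCm38.p6, of which 61 members had an entry. A tract was a run of 5 or more bases that are each C or T, opening with C, read on the transcript strand only, whose first base lay within 10 bases of an annotated start. It was present in 36 of these 61 members (59.0%) and in 32.6% of all 27025 genes with an entry. The windows below show the members called in a comparison over time that had an entry, from 10 bases before the annotated start to 20 bases from it, with the tract in capitals.
Rpl14, chr9:120571507-120571536, forward strand: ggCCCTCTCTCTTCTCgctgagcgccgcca
Rps24, chr14:24490668-24490697, forward strand, the upstream of 2 annotated starts: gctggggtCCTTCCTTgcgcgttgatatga
Rpl36al, chr12:69184048-69184077, reverse strand: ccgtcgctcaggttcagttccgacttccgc
Rpl7l1, chr17:46782637-46782666, reverse strand: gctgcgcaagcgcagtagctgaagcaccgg
Rpl14 and Rps24 hold a tract of 14 and 8 bases at the start, whereas the windows of Rpl36al and Rpl7l1 hold none. An annotated start may lie some bases away from the start a cell uses, so a window without a marked run says only that none meets the distance limit. Rpl36al does hold a run of 5 such bases opening with C, but farther from the start than 10 bases.

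Depth ranged from 28847989 to 41595972 counts per library. Tob1, the targeted gene, had more reads counted in the libraries labelled Tob-KO than in WT. Its group means were 38.1 to 43.8 CPM (the count scaled to an equal, TMM-normalized library size) in WT. In libraries labelled Tob-KO they were 53.4 to 66.8 CPM, without overlap. A sum over the whole gene cannot tell its parts apart, so these values do not test the knockout. For the making and validation of the line the paper refers to an earlier report. Genotype is therefore used below as the label gives it. All 9 markers of hippocampal excitatory neurons were counted, with a summed level of 6040 to 7411 CPM. Markers of the choroid plexus, a tissue within the ventricles, summed to 28.2 CPM in the lowest library and 4992 CPM in the highest. In 4 libraries the ribosomal protein genes stood apart from the rest, namely replicate 3 of WT naive and of the naive libraries labelled Tob-KO, replicate 2 of WT 15 min and replicate 3 of the 15 min libraries labelled Tob-KO, and the results over time that use them are given with and without them. The labels name no sequencing batch. The study describes its replicates as biological, and the labels do not tie a library to a mouse. A bulk sample cannot tell fewer cells of a type from less RNA per cell.

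The 82 genes together took 0.876% to 1.22% of the counts of a library, with a median of 1.02%. Per length, the highest was Rplp1, an acidic protein of the stalk that recruits elongation factors, at 512 ± 43.3 CPM per kb of its longest annotated coding transcript (SD over 24 libraries). It was followed by Rpl3, which lies near the peptidyl transferase centre, at 305 ± 20.1 CPM per kb, by Rps15 at 302 ± 24.4, by Rps14 at 287 ± 26.7 and by Rps2 at 269 ± 19.9. Neighbours in this order from Rpl3 to Rps2 lie within 1 SD of each other. Rplp0 and Rplp2, the other stalk proteins, were at 122 ± 7.16 and 75.8 ± 6.04 CPM per kb, below Rplp1 by more than their spread.

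Among the small subunit proteins, Rps6, which S6 kinase phosphorylates, had 149 ± 8.65 CPM per kb. Rpsa, also known as the laminin receptor, had 143 CPM per kb, and Rps4x, which is encoded on the X chromosome, had 192 ± 11.7 CPM per kb. Rps27a and Fau, which encode ubiquitin or a ubiquitin-like protein fused to the ribosomal one, had 164 ± 12.7 and 108 ± 7.98 CPM per kb. On the large subunit Rpl13a, which is known for a role outside the ribosome in silencing inflammatory mRNAs, had 159 ± 14.3 CPM per kb. The shortest coding sequence, that of Rpl41, gave the highest level per coding length, 816 CPM per kb, but 194 CPM per kb of transcript.

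The lowest levels per length belonged to Rps27l at 12.3 ± 1.49 CPM per kb, Rpl7l1 at 15.6 ± 1.02, Rps20 at 16.2, Rpl36al at 20.0 ± 1.52 and Rps15a at 22.3. Of these, Rps20 and Rps15a are annotated with transcripts of 3706 and 5179 bases, far longer than their coding sequences of 357 and 390 bases, and were not among the lowest 5 per coding length. Rps27l, Rpl7l1 and Rpl36al were among the lowest 5 by both measures. They are relatives of Rps27, Rpl7 and Rpl36a, whose levels were 127, 154 and 87.1 CPM per kb. The pair Rpl22 and Rpl22l1 ran the other way per transcript length, at 40.1 and 69.7 CPM per kb, but not per coding length, at 214 and 105 CPM per kb. Reads of near-identical copies could not be told apart from those of the parent gene, 34 members overlap another annotated gene on the same strand, and 24 hold an annotated small nucleolar RNA gene.

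The members moved together from library to library. Each gene was set against its own mean log2 CPM over the 24 libraries. In 4 libraries all 82 members lay on the same side of their means. They were all below it in replicate 3 of WT naive and in replicate 3 of the naive libraries labelled Tob-KO, with medians of -0.23 and -0.19 on the log2 scale. They were all above it in replicate 2 of WT 15 min and replicate 3 of the 15 min libraries labelled Tob-KO, with medians of 0.28 and 0.15. Members of the large and the small subunit deviated alike, with medians of -0.22 and -0.24 in the lowest library and 0.28 and 0.28 in the highest. The next farthest was replicate 3 of the 1 h libraries labelled Tob-KO, at -0.11, where 2 of 82 members were above their mean. The distance between the highest and the lowest library was 1.43-fold.

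**Figure D1:**
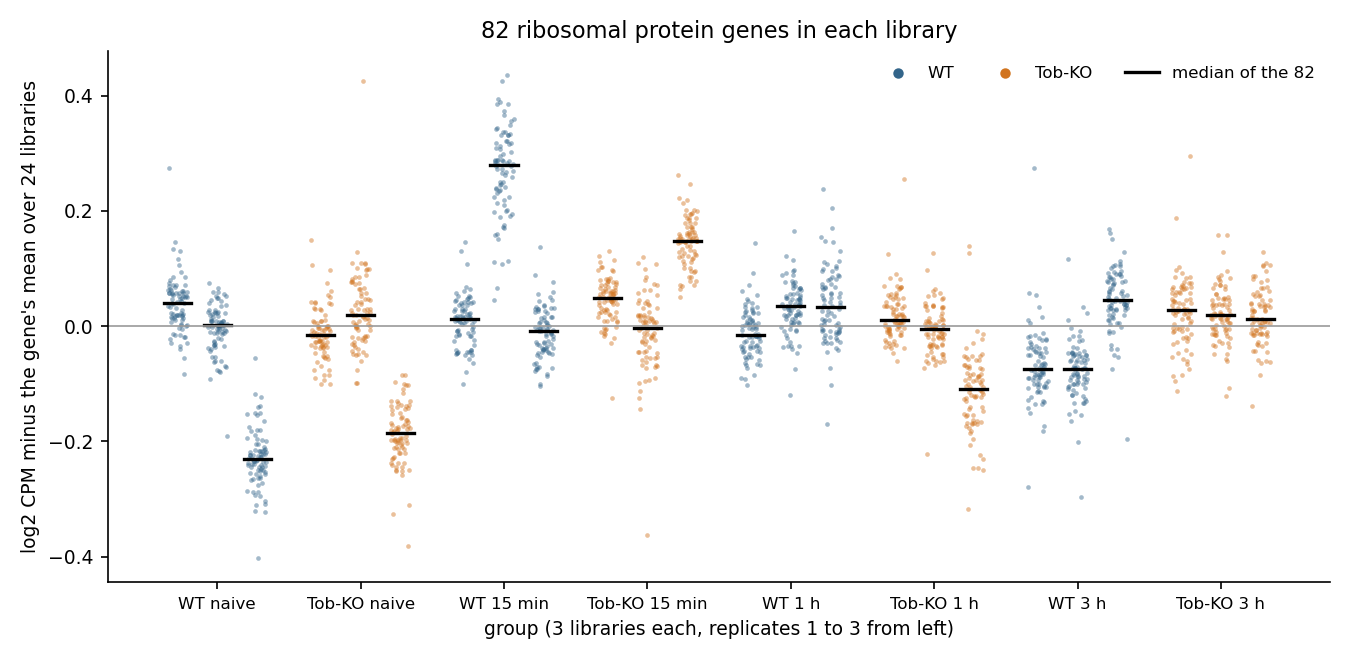
Each point is 1 of the 82 ribosomal protein genes in 1 library, as log2 CPM minus the gene's mean over the 24 libraries; black bars are the medians of the 82, and libraries stand in replicate order within each of the 8 groups. The points of a library lie together, with medians from -0.23 to 0.28.

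Of the 82 members, 75 had a Pearson r of at least 0.8 with the median of the other members over the 24 libraries, which share their depth and scaling, and the median r was 0.93. Rpl11, which together with Rpl5 binds the p53 regulator Mdm2, had an r of 0.97. Only 3 members fell under 0.5, and all are named as like another member. They were Rps27l at 0.29, Rpl7l1 at 0.39 and Rps4l at 0.40. Rps27l and Rps4l also had the fewest counts of all members, from 161 and 518 per library. The part of counting error in their r was not tested. Rps4l is annotated as a transcribed processed pseudogene, and Rps27l is known as a p53 target. The other genes named as like another member, Rpl36al and Rpl22l1, followed the rest at 0.83 and 0.86.

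The spread of a member over the libraries was small, with a median SD of 0.11 on the log2 scale. It was widest in Rps4l (0.19), Rps27l (0.17) and Rps29 (0.17) and narrowest in Rps15a (0.051), Rpl15 (0.065) and Rpl6 (0.069). Rps15a ranged from 109 through a median of 116 to 125 CPM, and Rps29 from 51.1 through 64.4 to 86.2 CPM. Rps27l, the member just above the count limit, had 5.32 to 9.49 CPM and Rps4l 16.1 to 25.8 CPM, the highest of Rps27l in replicate 2 of the naive libraries labelled Tob-KO, where the set as a whole was at 0.02.

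**Figure D2:**
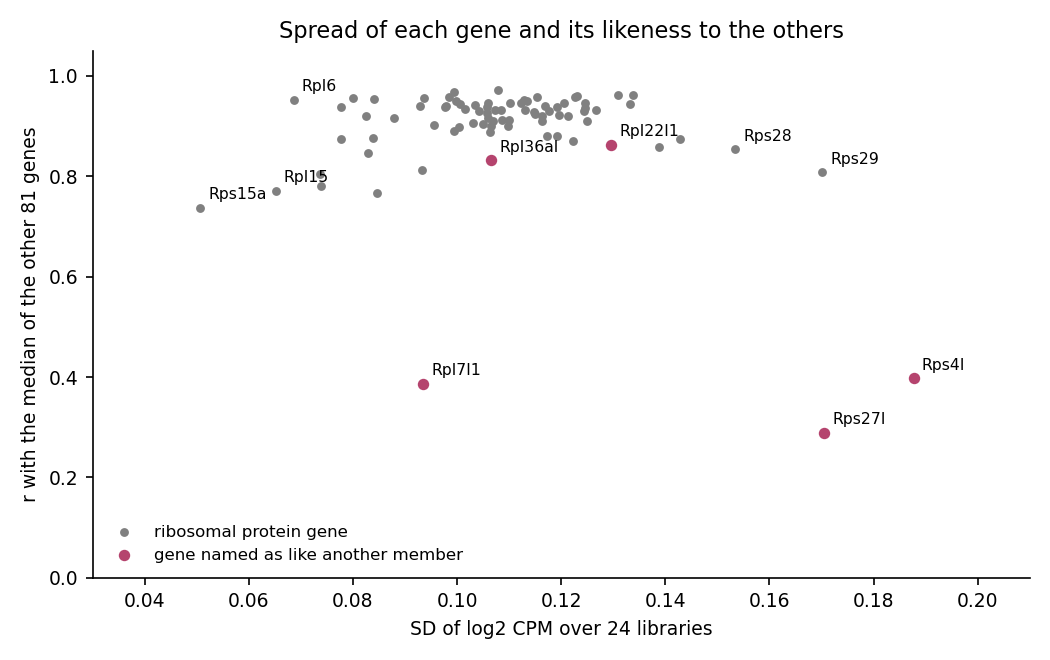
Each point is 1 ribosomal protein gene, with the SD of its log2 CPM over the 24 libraries on the x axis and its Pearson r with the median of the other members on the y axis. Rps27l, Rps4l and Rpl7l1 lie apart at an r of 0.29, 0.40 and 0.39.

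Other short genes stood on the same side in the same libraries. Among protein-coding genes outside the set with a mean above 5 on the log2 CPM scale, 31 had a longest transcript of up to 700 bases, a class chosen after the values were seen. Their median deviation was -0.16 in replicate 3 of WT naive and -0.17 in replicate 3 of the naive libraries labelled Tob-KO. It was 0.22 in replicate 2 of WT 15 min and 0.06 in replicate 3 of the 15 min libraries labelled Tob-KO, where the members stood at 0.15. The 2972 genes with transcripts over 4000 bases deviated the other way in these 4 libraries, by 0.02, 0.03, -0.06 and -0.03. Some libraries outside the 4 reached values of similar size. Genes of up to 700 bases stood at 0.08 in replicate 3 of WT 1 h and 0.07 in replicate 1 of WT naive. Genes over 4000 bases stood at -0.04 in replicate 1 of WT naive and 0.03 in replicate 3 of the 1 h libraries labelled Tob-KO.

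Of 18 other gene lists, 9 stood on the same side as the set in all 4 libraries by their mean deviation, here in the order in which the libraries were named. Transcripts of the mitochondrial genome stood at -0.19, -0.25, 0.17 and 0.19, with 2.84%, 2.62%, 3.56% and 3.38% of the counts. Oligodendrocyte markers stood at -0.23, -0.31, 0.07 and 0.30, and microglia markers at -0.10, -0.12, 0.23 and 0.15. Astrocyte, interneuron and ependyma markers, translation factors, mitochondrial ribosomal proteins and immediate early genes were the others on the same side. Immediate early genes were below their mean in every naive library and above it in every 15 min library. Their side in these 4 therefore goes with the time point and does not show that they followed the set. Markers of excitatory neurons were below their mean in all 4, at -0.06, -0.04, -0.06 and -0.08. Choroid plexus markers did not follow the set, at -2.76, 2.15, -2.75 and 1.17. The part of transcript length and of these lists in the results below was not tested.

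**Figure D3:**
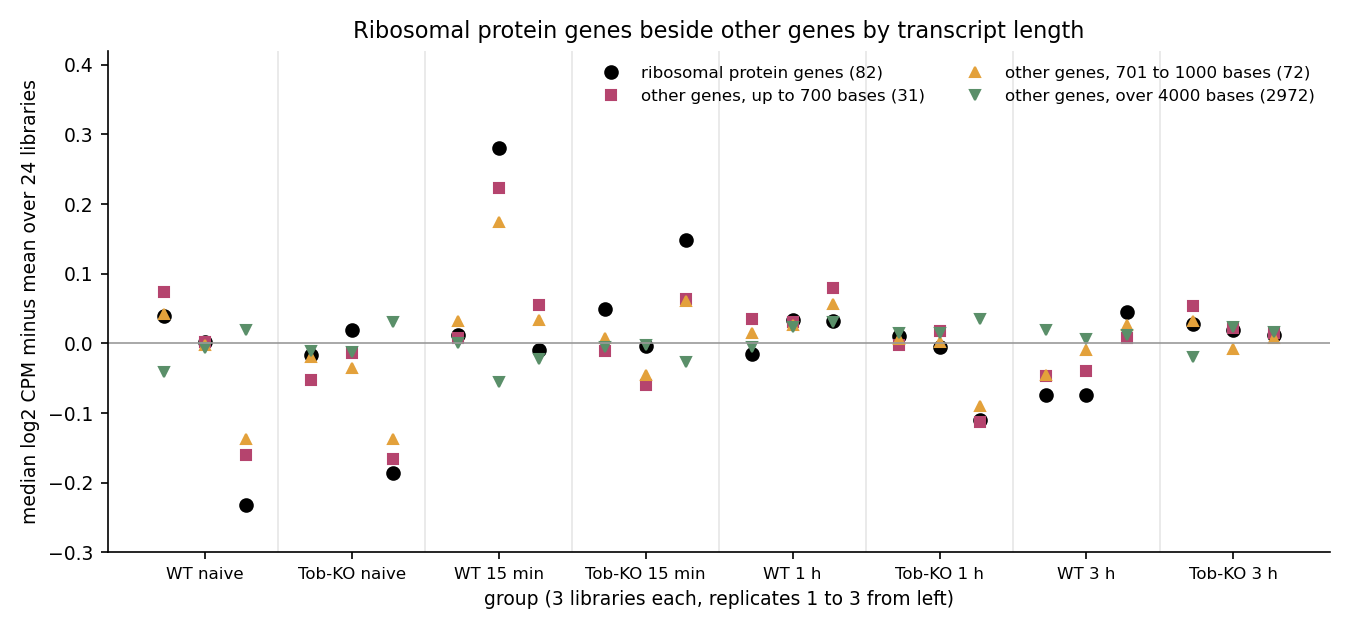
Median log2 CPM minus the mean over 24 libraries, per library, for the 82 ribosomal protein genes and for other protein-coding genes in 3 classes of transcript length, with the number of genes in brackets. In replicate 2 of WT 15 min the ribosomal protein genes lie at 0.28 and the other genes of up to 700 bases at 0.22.

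The first question of the design was how the set differed between naive mice and mice culled 15 min after conditioning. In the fit over both genotypes all 82 members were higher at 15 min, with a median log2 fold change of 0.14 and a range of 0.03 to 0.21. Over all 19114 genes tested the median was 0.003 and 51.0% were higher. With edgeR's quasi-likelihood test at a Benjamini-Hochberg FDR of 0.05 over all genes, 6 members rose and none fell, where 1.75% of all genes rose and 4.83% changed in either direction. A further 57 members had an unadjusted p under 0.05 without passing the adjusted limit, and DESeq2 called 21. The shares above are edgeR's at the adjusted limit. Those of all genes at the unadjusted limit or by DESeq2 are not given here. The called members were Rpl36al, Rpl17, Rpl23a, Rpl14, Rpl21 and Rps24, with log2 fold changes of 0.17 to 0.18, SE of 0.049 to 0.052 and adjusted p of 0.036 to 0.049. All are structural proteins of the ribosome, and Rps24 belongs to the small subunit and the others to the large subunit.

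This difference was not seen when the 4 libraries that stood apart were left out. Without them the median was -0.0086, 33 of 82 members were higher at 15 min and no member was called, by edgeR's quasi-likelihood test, or had an unadjusted p under 0.05. Those libraries were picked for the level of the set, low in naive mice and high at 15 min. A lower median without them therefore follows from how they were picked and does not show what the difference rests on. That limit also holds for the other values at 15 min given without them. Leaving out any single library of the 4 left no member called, at medians of 0.10 to 0.12. The count was 25 without replicate 1 of WT naive, 17 without replicate 1 or replicate 3 of WT 15 min, 15 without replicate 2 and 1 without replicate 1 of the 15 min libraries labelled Tob-KO, and 2 to 7 without any single other library. The share of all genes called in each of these fits is not given here.

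Rps24 shows the pattern. It had 136, 133 and 112 CPM in the WT naive libraries and 132, 126 and 110 CPM in naive libraries labelled Tob-KO. At 15 min it had 137, 160 and 129 CPM in WT and 135, 139 and 141 CPM in those labelled Tob-KO. The low values are replicate 3 of both naive groups and the high value is replicate 2 of WT 15 min, and the time points overlap. Rpl36al had 22.0 to 26.0 CPM in the 6 naive libraries and 26.1 to 31.7 CPM in the 6 libraries at 15 min, ranges that lie next to each other without overlap.

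Rps14, with the widest difference, had 179 to 229 CPM in naive libraries (median 218) and 222 to 293 CPM at 15 min (median 231), with overlap. Rpsa had 231 to 286 CPM (median 268) and 277 to 334 CPM (median 282), also with overlap, at a log2 fold change of 0.15 (SE 0.050). The stalk proteins Rplp0, Rplp1 and Rplp2 had 0.08, 0.16 and 0.13, and Rps6 had 0.14 (SE 0.042). When the 4 libraries were left out, these were 0.03 for Rps14, 0.02 for Rpsa, -0.03, 0.001 and -0.03 for Rplp0, Rplp1 and Rplp2, and 0.03 for Rps6. In each of these the lowest naive value was that of replicate 3 of WT naive.

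Members with a pyrimidine tract at the annotated start and those without did not stand apart at 15 min. The 36 with a tract had a median log2 fold change of 0.14 and the 25 without one had 0.14. These medians were -0.01 and -0.001 when the 4 libraries were left out. The members with the smallest differences were Rps27l at 0.03, Rps15a at 0.04 and Rpl22 at 0.06, and those with the largest were Rps14 at 0.21 and Rpl22l1 at 0.20, none of them called. Rps24 and Rpl11 were named after their values were seen.

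For scale, all 12 immediate early genes listed, which neurons switch on within minutes of activity, rose at 15 min, with a median log2 fold change of 1.12, and 11 of them, at 1.14, when the 4 libraries were left out. Markers of endothelial cells also moved with this comparison. Of 6, 4 rose and none fell, where 1.75% of all genes rose at 15 min. The summed level of the 6 was 154 to 209 CPM in the naive libraries and 209 to 288 CPM at 15 min, with no marker at 0. Of 7 astrocyte markers 2 rose, at a summed level of 4480 to 4695 CPM against 4331 to 5055 CPM. With the 4 libraries left out, 2 endothelial markers rose, at 154 to 209 CPM against 209 to 230 CPM, and 1 astrocyte marker. Choroid plexus markers had summed levels of 45.9 to 4992 CPM in naive libraries (median 1552) and 28.2 to 3415 CPM at 15 min (median 55.4), and all 12 were lower at 15 min without a call. Blood markers had 44.2 to 72.2 CPM (median 49.3) and 41.3 to 135 CPM (median 62.7), and all 7 were higher without a call. All 7 oligodendrocyte and all 7 microglia markers were also higher without a call, and 11 of 12 transcripts of the mitochondrial genome were, at a median of 0.14. Without the 4 libraries these were 2 of 7, 4 of 7 and 7 of 12. The part of these cell types in the level of the ribosomal protein genes was not tested.

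Within a genotype no member was called at 15 min by the quasi-likelihood test or by DESeq2. In WT all 82 members were higher than in naive mice at a median of 0.15, and 26 had an unadjusted p under 0.05. At the adjusted limit, which no member passed, 0.0471% of all genes were called. In the libraries labelled Tob-KO 81 were higher at a median of 0.12, and 17 had an unadjusted p under 0.05. At the adjusted limit 2.58% of all genes were called there. The share of all genes at the unadjusted limit is not given here, so the counts of 26 and 17 have no like value beside them. The interaction of genotype with this step called no member by either tool and none reached an unadjusted p under 0.05, where 0.0% of all genes were called; the members' median was -0.03. Without the 4 libraries the median was -0.019 in WT, 0.0087 in those labelled Tob-KO and 0.025 for the interaction.

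At 1 h the members were close to naive levels, with the exception of Rpl7l1. The median log2 fold change over both genotypes was 0.05 and 77 of 82 were higher, but without the 4 libraries the median was -0.02 and 20 were higher. Leaving them out drops the naive libraries in which the set was lowest, so a lower median follows from how they were picked. The same limit holds for the values without them in the comparisons with naive mice below. A single member was called, against 2.53% of all genes called higher and 6.32% called in either direction. This was Rpl7l1, a relative of Rpl7 that is known for a role in the nucleolus during assembly of the large subunit, at 0.20 (SE 0.032, adjusted p 0.0011 in edgeR's quasi-likelihood test).

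Rpl7l1 had 38.3, 39.1 and 37.4 CPM in WT naive libraries and 38.7, 39.7 and 38.3 CPM in naive libraries labelled Tob-KO. At 15 min it had 41.8, 43.8 and 40.4 CPM in WT and 41.3, 38.8 and 42.1 CPM in those labelled Tob-KO. At 1 h it had 44.9, 44.0 and 43.8 CPM in WT and 44.3, 43.5 and 44.8 CPM in those labelled Tob-KO. The 6 libraries at 1 h thus lie above all 6 naive libraries, and those at 15 min run from 38.8 to 43.8 CPM, overlapping with the naive libraries and, through replicate 2 of WT, with those at 1 h. At 3 h it had 36.6, 39.0 and 41.4 CPM in WT and 39.1, 37.3 and 38.3 CPM in those labelled Tob-KO, all below the 1 h libraries.

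From 1 h to 3 h Rpl7l1 fell by 0.20 on the log2 scale (SE 0.032, adjusted p 0.0011 in edgeR's quasi-likelihood test). It was the only member called in that step, where 2.29% of all genes fell and 3.93% changed in either direction. Without the 4 libraries Rpl7l1 was still called in both steps, at 0.18 and -0.19. Leaving out each of the 24 libraries in turn kept both calls, with 0.19 to 0.21 for the rise and -0.22 to -0.18 for the fall. Rpl7, its relative in the mature ribosome, had a log2 fold change of 0.02 (SE 0.042) at 1 h, which was -0.04 without the 4 libraries. Its level was 160 to 186 CPM in naive libraries, 172 to 186 CPM at 1 h and 172 to 189 CPM at 3 h, so that the time points overlapped.

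**Figure D4:**
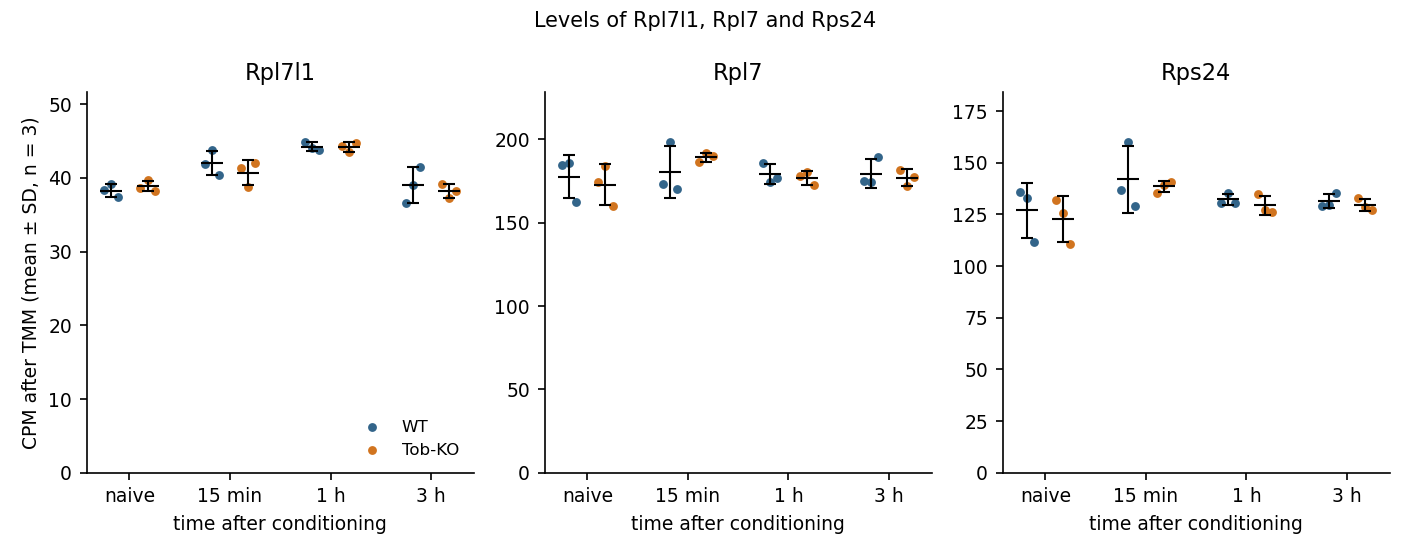
CPM after TMM scaling of Rpl7l1, Rpl7 and Rps24 by time after conditioning, with a point for each library and the mean ± SD of the 3 libraries of each group in black. The 6 libraries of Rpl7l1 at 1 h lie between 43.5 and 44.9 CPM, above the naive libraries at 37.4 to 39.7 CPM.

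Within genotypes the rise of Rpl7l1 at 1 h had the same size but not the same support. It was 0.21 (SE 0.048, adjusted p 0.083) in WT and 0.18 (SE 0.048, adjusted p 0.057) in the libraries labelled Tob-KO in edgeR's quasi-likelihood test. DESeq2 called it in both genotypes, at 0.21 and 0.19. The interaction of genotype with this step was -0.02 (SE 0.068), and its adjusted p in edgeR's quasi-likelihood test was 0.999. No other member was called at 1 h within WT, where 0.188% of all genes were called, or within the libraries labelled Tob-KO, where 1.16% were called. Across the members the interaction had a median of -0.05, with no call by either tool, no unadjusted p under 0.05, and 0.0% of all genes called. It was -0.04 when the 4 libraries were left out.

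Assembly factors of the ribosome were read beside Rpl7l1. Of 36 tested, 7 rose at 1 h and none fell, with 31 higher than in naive mice and a median log2 fold change of 0.07, where 2.53% of all genes rose. They include Nop58, a core protein of box C/D small nucleolar ribonucleoproteins, at 0.19 (SE 0.045), Ddx21, a nucleolar RNA helicase, at 0.17 (SE 0.048), and Tcof1, a partner of RNA polymerase I, at 0.17 (SE 0.042), with adjusted p of 0.013 to 0.031 in edgeR's quasi-likelihood test. When the 4 libraries were left out, 2 of the 36 were called at a median of 0.08, Tcof1 among them at 0.17, while Nop58 and Ddx21 had 0.14 and 0.14. At 15 min no assembly factor was called, and from 1 h to 3 h Nop58 fell by 0.18. Of 18 translation factors and other genes known for such tracts, 11 had a promoter entry and 5 of these (45.5%) held a tract by the search above. Of the 18, 2 rose at 1 h and none fell: Eif3a, the scaffold of initiation factor 3, by 0.14, and Npm1, a nucleolar chaperone, by 0.15. Among 13 genes of the pathway that controls tract-bearing mRNAs, Rps6kb2, an S6 kinase, fell by 0.43 at 15 min and by 0.40 at 1 h, and Tsc2, an inhibitor of mTOR, fell by 0.17 at 15 min. Of all genes, 4.83% changed in either direction at 15 min and 6.32% at 1 h. None of the 13 rose in either comparison. When the 4 libraries were left out, none of the 13 was called at 15 min, with Rps6kb2 at -0.21 and Tsc2 at -0.12, and Rps6kb2 was called at 1 h at -0.34. Without the 4 libraries Eif3a alone of the 18 was called at 1 h, and the median of the 18 was -0.02, against 0.02 with them.

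At 3 h no member was called against naive mice by edgeR's quasi-likelihood test or by DESeq2, and 0.0% of all genes were called by the former. The median log2 fold change was 0.05 with 78 of 82 higher and 3 with an unadjusted p under 0.05, and without the 4 libraries it was -0.01 with 23 higher. Within WT the median was 0.03 with no unadjusted p under 0.05, and within the libraries labelled Tob-KO it was 0.07 with 3, and neither had a call by either tool, where 0.0% of all genes were called in each. These medians were -0.04 and 0.003 without the 4 libraries. The interaction was 0.05 in the median, and 0.05 when the 4 libraries were left out, with no call by either tool, no unadjusted p under 0.05 and 0.0% of all genes called. The step from 15 min to 1 h had a median of -0.09 with 2 of 82 higher, Rpl7l1 at 0.10 and Rps27l at 0.04. None was called by either tool at the adjusted limit, where edgeR called 0.544% of all genes, and 13 had an unadjusted p under 0.05. Without the 4 libraries, which include those where the set was highest at 15 min, the median was -0.02. For the comparisons at 1 h and 3 h, the shares of all genes higher or at the unadjusted limit are not given here. The counts of members higher or at that limit thus have no like value beside them.

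**Figure D5:**
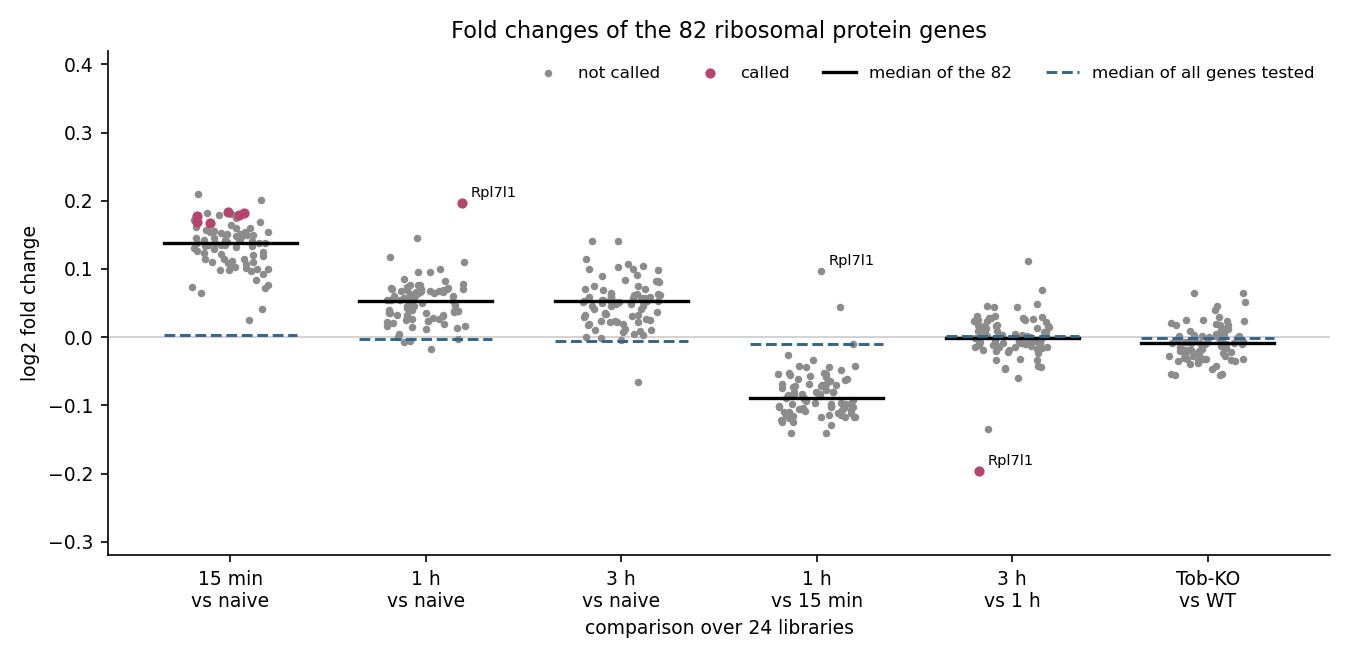
Log2 fold changes of the 82 ribosomal protein genes in 6 comparisons over 24 libraries, with called genes in colour, the median of the 82 as a black bar and the median of all genes tested as a dashed line. The members lie above all genes at 15 min with a median of 0.14, and Rpl7l1 lies apart from the other members at 0.20 in 1 h vs naive and at -0.20 in 3 h vs 1 h.

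The last question was whether the libraries labelled Tob-KO differed from WT. No ribosomal protein gene was called at any time point. In edgeR's exact test with the study's limits, a 2-fold change and an FDR of 0.05, 0.0218% of all genes were called in naive mice, 0.555% at 15 min, 0.033% at 1 h and 0.0274% at 3 h. Without the fold limit these shares were 0.0381%, 0.746%, 0.121% and 0.0657%, and again no member was among them. DESeq2 called none either. The number of members with an unadjusted p under 0.05 was 0, 0, 2 and 3. No like share of all genes is given beside these counts.

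The members' median log2 fold change of Tob-KO against WT was 0.002 in naive mice, -0.03 at 15 min, -0.05 at 1 h and 0.04 at 3 h, with 42, 21, 11 and 69 of 82 members higher. The members moved together from library to library, so these counts, like those over time, do not measure separate changes. The share of all genes higher between genotypes is not given here. Leaving out replicate 2 of WT 15 min alone turned the 15 min value to 0.07, and leaving out all 4 libraries gave -0.02 in naive mice and 0.02 at 15 min with no call. The naive value ran from -0.08 to 0.07 as single libraries were left out. Over all time points the median was -0.01 (-0.001 when the 4 libraries were left out) and the members ranged from -0.06 (Fau) to 0.07 (Rps2), with SE of 0.022 to 0.073. None was called over all time points by edgeR's quasi-likelihood test or DESeq2, none had an unadjusted p under 0.05, and 0.476% of all genes were called.

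As group means of the set's deviation, naive libraries stood at -0.06 ± 0.15 in WT and -0.06 ± 0.11 in those labelled Tob-KO (SD, n = 3 each). At 15 min the means were 0.09 ± 0.16 and 0.06 ± 0.077, at 1 h 0.02 ± 0.028 and -0.03 ± 0.065, and at 3 h -0.03 ± 0.069 and 0.02 ± 0.0075. Of 28 pairs of groups, 27 overlapped in the range of their 3 libraries. The exception was 1 h and 3 h in the libraries labelled Tob-KO, which ran up to 0.011 and from 0.012.

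Tob1 lies on chromosome 11 of GRCm38 from 94211454 to 94215495, and 7 members share this chromosome. The nearest, Rpl23 and Rpl19, are 3.56 and 3.81 Mb away, and the others, Rpl27, Rpl23a, Rpl38, Rpl26 and Rps27a, are 7.23 to 64.7 Mb away. Over all time points their log2 fold changes of Tob-KO against WT were -0.05 to 0.05, and none was called, with 0.60 as the lowest adjusted p in edgeR's quasi-likelihood test. Among the 36 assembly factors Utp18 alone was called, at 0.51 (SE 0.031, adjusted p 3.5e-10 in the same test), where 0.476% of all genes were called. The position of Utp18 relative to Tob1 is not given here, and the cause of its difference was not tested.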

How the data were processed

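Hippocampal poly(A) RNA was sequenced by the authors as 150-bp paired ends from directional libraries, mapped to GRCm38 with STAR 2.6.1d and counted with HTSeq 0.9.0, versions as in the submitters' processing notes. The authors deposited raw counts per gene, without normalization. The annotation release, the strand setting and the handling of reads with several matches are not given in the sources used here. Counts are reads without molecular identifiers, so depth covers counting error only.

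The members, the gene lists and the rule for named genes were chosen with earlier results of these data known. The rule took called members (up to 5 a comparison), a fixed list by role, extremes of level per length and of spread, members on chromosome 11, and up to 3 called genes of each other list.

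Genotypes were compared at each time point as in the study, with edgeR 4.0.16 (R 4.3.3), TMM, at least 0.2 CPM in 2 of 6 libraries and the exact test. The study gives no test over time, so these comparisons and the interactions used edgeR's quasi-likelihood test over 24 libraries (at least 0.2 CPM in 3), with genotype and time as terms or with 8 group means. DESeq2 1.42.0, other scalings, no filter, the replicate number as a block and leaving out libraries were alternatives. P-values were adjusted by Benjamini-Hochberg over all genes tested, and the fits were tested on simulated data. Log2 CPM used a prior count of 2. Positions and lengths come from GENCODE vM21, where 82 of 82 members matched 1 gene. Libraries of a group differed by a chi-square of 3.85 to 24.8 per degree of freedom, so none was counted as a duplicate.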

Additional observations from a re-analysis of the deposited data

How the results depend on the processing

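No member was called between genotypes under any alternative run, and the calls of Rpl7l1 in 1 h vs naive and in 3 h vs 1 h over both genotypes held under every one. In 15 min vs naive over both genotypes, where 6 members were called, DESeq2 called 21, the replicate block 3, and leaving out the 4 libraries that stood apart, an alternative chosen after seeing the data, 0. The share of all genes called under each alternative is not given here. DESeq2 called 1 member, Rpl7l1, in 1 h vs naive within WT and 1 within the libraries labelled Tob-KO, where edgeR's quasi-likelihood test called 0. Without the 4 libraries the median of 15 min vs naive was -0.0086 over both genotypes, -0.019 within WT and 0.0087 within the libraries labelled Tob-KO, and the value of Rpl7 at 1 h was -0.036; the cause was not tested. Leaving out each library in turn gave 0 to 25 called members in 15 min vs naive and 0 to 1 in 1 h vs naive within the libraries labelled Tob-KO. The medians of the members then ran from 0.051 to 0.21 in 15 min vs naive within WT, from -0.075 to 0.067 in Tob-KO vs WT at 15 min and from -0.083 to 0.072 in the interaction of genotype with 15 min. With 3 libraries a group, the SE of single members between genotypes at 1 time point was 0.032 to 0.20.

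The labels give the groups the same replicate numbers. Deviations of same-numbered libraries from their group means had correlations of -0.70 to 0.73 over 84 pairs, 25 of them over 0.1, and 4 of 24 libraries correlated best with their own number, so the numbers were not read as pairs. The replicate block changed no other count of called members.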

Other observations

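The proteins of the mitochondrial ribosome are encoded by other genes. Of 76 tested, 65 were higher at 15 min than in naive mice, with a median log2 fold change of 0.05, and 2 rose in edgeR's quasi-likelihood test, Mrps16 by 0.23 and Mrpl40 by 0.20 (adjusted p 0.016 and 0.048), a share near the 1.75% of all genes that rose. Without the 4 libraries in which the cytosolic set stood apart, 32 of the 76 were higher, at a median of -0.01, and none was called. Between genotypes over all time points 13 of 76 were higher and none was called. The difference between the cytosolic and the mitochondrial genes was not tested.

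Of the 90 ribosomal protein names, 8 fell under the limit of 100 counts. Rpl24 was listed with 2 to 9 counts per library, although the protein is part of the large subunit in every cell. Rps3a2, annotated as a processed pseudogene, came nearest to the limit from below, with 19 to 44 counts, and Rps27l was the nearest above it, with at least 161. Rpl3l and Rpl39l, which are known from muscle and testis, had 1 to 16 and 0 to 7 counts, and Rpl10l had 0. In addition 270 names of ribosomal pseudogenes together held 0.0030% to 0.0044% of the counts of a library, against 0.876% to 1.22% for the 82 members. How reads that match both a gene and its copies were shared out is not given in the sources used here.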
